A study of Homo sapiens with 8 samples.

Results

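The heat shock genes described here are HSF1, the transcription factor that switches on the heat shock response, and 9 chaperone or cochaperone genes that HSF1 is known to activate, namely HSPA1A, HSPA1B, HSPA8, DNAJB1, HSPH1, HSP90AA1, HSPB1, HSPD1 and BAG3. They were chosen by name as the rows of the raw count matrix whose Ensembl identifier carries one of these symbols. All 10 were found among 60676 identifiers, and 8 of them had counts and were tested. IGR-N91, a human stage 4 neuroblastoma cell line, was grown as aggregates in hanging drops. One group was kept in control medium, and the others in medium that had been conditioned by E8 chick sympathetic ganglia (E8-cSGcm, where the library labels write GS), by E8 chick dorsal root ganglia (E8-cDRGcm) or by E15.5 mouse sympathetic ganglia (E15.5-mSGcm). The 8 total RNA libraries, 2 per group, were made after 20 h by their labels and 24 h by the text of the series. All groups are the same cell line, for which the labels name no engineered allele, and differ by their labels in the medium alone. The study's methods describe measurements as coming from distinct samples and the RNA as sent in duplicates, but do not say that duplicates were separate cultures, so that p-values measure only the spread between these libraries, which may be technical.

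In unstressed cells HSF1 is held inactive by chaperones. When unfolded proteins engage those chaperones, HSF1 forms trimers, binds heat shock elements, which are inverted repeats of the unit GAA and its complement TTC, and raises the transcription of chaperone genes. HSF1 is controlled mostly by assembly and modification of the protein, so its own RNA is not a reading of its activity. The target genes work as a machine. HSP70 proteins bind unfolded chains, HSP40 proteins such as DNAJB1 deliver the chains and start ATP hydrolysis, and HSPH1 and BAG3 make HSP70 release its nucleotide. HSP90 finishes the folding of kinases and receptors, the small protein HSPB1 holds unfolding proteins in solution, and HSPD1 folds proteins inside mitochondria.

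Stretches of promoter with heat shock elements are given for the members the results turn on and for HSPA6, an HSP70 gene that is nearly silent without stress. They were read from RefSeq promoter windows of GRCh38.p14, each covering 250 bases before and 50 after an annotated start, and are written 5′ to 3′ on the strand of the gene with the element in capitals. The members' own windows show the order of the repeats in genes that behaved differently in these libraries.
DNAJB1, window 2, chr19:14518417-14518494, minus strand: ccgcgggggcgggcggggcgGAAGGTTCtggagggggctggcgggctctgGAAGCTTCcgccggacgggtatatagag
HSPA6, chr1:161524446-161524498, plus strand: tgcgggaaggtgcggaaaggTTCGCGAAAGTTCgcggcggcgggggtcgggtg
HSPA8, distal, chr11:123062334-123062386, minus strand: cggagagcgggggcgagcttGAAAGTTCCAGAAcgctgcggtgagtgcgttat
HSPA8, proximal, chr11:123062159-123062211, minus strand: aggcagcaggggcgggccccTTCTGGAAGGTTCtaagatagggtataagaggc
HSP90AA1, window 2, chr14:102087100-102087152, minus strand: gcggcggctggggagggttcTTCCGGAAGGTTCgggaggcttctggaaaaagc
HSPD1, window 2, chr2:197500048-197500090, minus strand: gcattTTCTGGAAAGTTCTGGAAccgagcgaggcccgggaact

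The search used an exact element of 2 units, GAANNTTC or TTCNNGAA, and one of 3 units, GAANNTTCNNGAA or TTCNNGAANNTTC, on both strands, and each match of 3 units holds overlapping matches of 2. Of 35116 windows of this length in the table, 4737 (13.5%) held the element of 2 units and 172 (0.490%) that of 3. HSPA8 held 2 separate elements of 3 units, at 230 to 218 and at 55 to 43 bases before the start. One of 2 windows of HSP90AA1 held an element of 3 units, at 88 to 76 bases before the start, and 1 of 2 windows of HSPD1 held 2 overlapping ones. HSPA6 held 1, at 74 to 62 bases before its start. DNAJB1 had no element of 3 units in its 3 windows, and in the stretch shown its 2 elements of 2 units lay 77 to 70 and 47 to 40 bases before the start. HSPA1A, HSPA1B and HSPB1 had 1 element of 2 units each. No match was found in the windows of HSPH1, BAG3 and HSPE1, which says only that these letters are not there. HSF1 is named without a window.

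**Figure D1:**
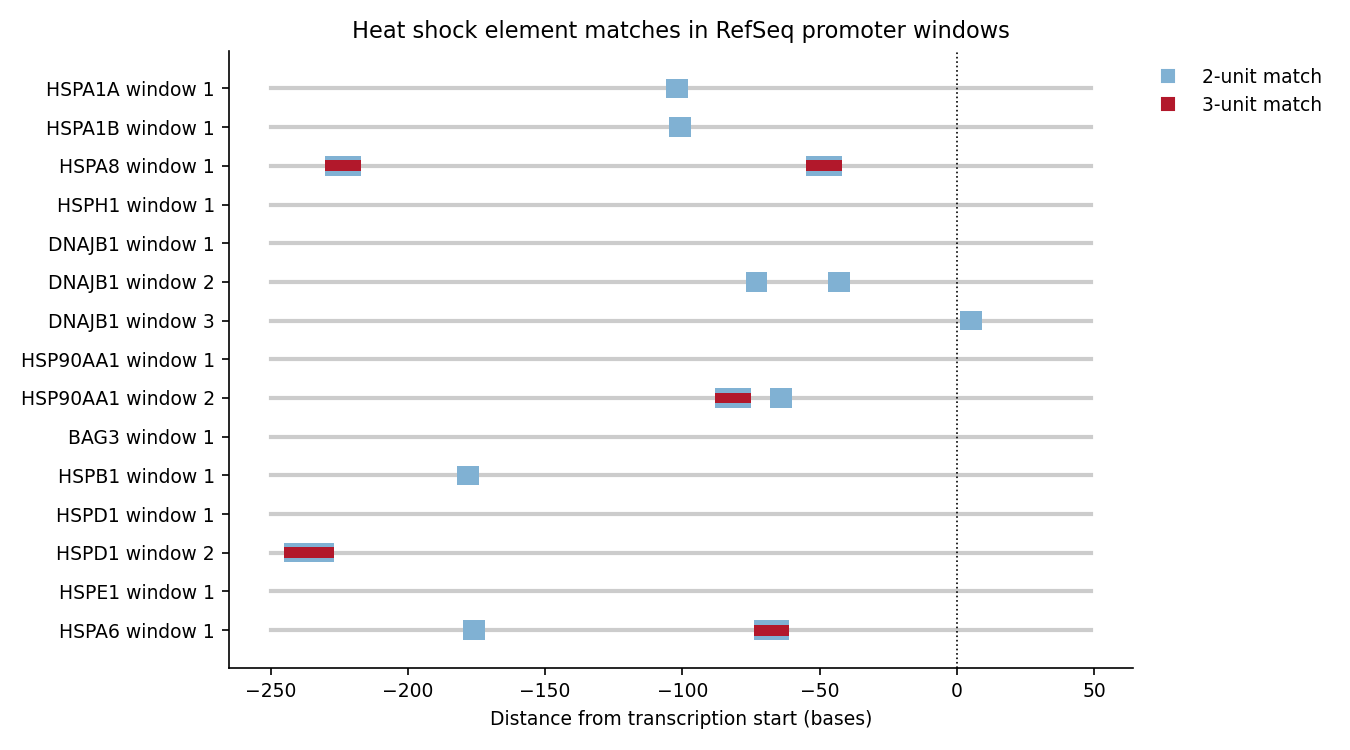
Matches to the heat shock element in the promoter windows of the heat shock genes, HSPE1 and HSPA6, by distance from the annotated start in bases (x axis), with 1 row per RefSeq window. Blue blocks are matches of 2 units and red blocks matches of 3 units; the red blocks lie in the windows of HSPA8, HSP90AA1, HSPD1 and HSPA6, and the rows of HSPH1, BAG3 and HSPE1 are empty.

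Total counts per library were between 12286211 and 15060744 in control medium and both chick media and lower, at 7930765 and 8937397, with E15.5-mSGcm. A count of 3, taken as the smallest amount a library can show, was 0.199 to 0.378 CPM, the count scaled to a fixed library total, and this floor covers counting error only. The E15.5-mSGcm libraries also had the largest share of counts on genes of the mitochondrial genome, 7.46% and 7.03% against 4.65% to 6.22% in the other 6. Of 10 markers of noradrenergic neuroblastoma 9 had counts, and CHGA was listed at 0 in all libraries, for a cause that was not tested. Their summed level was 7013 to 7168 CPM in control medium. It was 5335 to 5662 with E8-cSGcm, 4341 to 4409 with E8-cDRGcm and 4249 to 4410 with E15.5-mSGcm. MYCN was the largest part of it, at a mean of 4645 CPM in control medium and 3402, 2496 and 2638 in these media. Of the 9, 0 rose, and 2 fell with E8-cSGcm, 5 with E8-cDRGcm and 4 with E15.5-mSGcm. Of 4 markers of glia, a cell type of the ganglia, SOX10 and FOXD3 were at 0 in all libraries and the summed level was at most 1.04 CPM. Of 3 endothelial markers only CDH5 was at 0, and VWF had 2 to 11 counts per library. The 3 summed to 1.32 to 1.61 CPM in control medium and to at most 0.962 CPM in the conditioned media. Of 3 blood markers only the globin HBB was at 0, and they summed to at most 1.15 CPM, in a library with E15.5-mSGcm. The 5 fibroblast markers summed to 156 to 174 CPM in control medium, 211 to 222 with E8-cSGcm, 194 to 199 with E8-cDRGcm and 159 to 172 with E15.5-mSGcm, where 4 of the 5 rose and 1 fell. That last sum hides opposite shifts, as COL1A1 fell 3.53-fold while DCN rose 4.91-fold, COL1A2 4.04-fold and LUM 1.90-fold. PDGFRA, with 14 and 8 counts in control medium, rose 12.5-fold there. With E8-cDRGcm DCN fell 1.62-fold, and with E8-cSGcm 0 were called. The part of these differences in the results on heat shock genes was not tested, and fewer cells of a kind cannot be told apart from less RNA per cell in bulk libraries.

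Counts were scaled by edgeR's TMM factors, and 1 quasi-likelihood model was fitted to all 8 libraries. Fold changes are from that fit, levels are TMM-scaled CPM, and adjusted p are by the Benjamini-Hochberg method over 16680 genes. A gene was called, and is said to rise or fall, at an adjusted p under 0.05 together with a fold change of at least 1.5. Against control medium, 1 of the 8 tested heat shock genes rose and 0 fell with E8-cSGcm, where 8.59% of all genes were called. With E8-cDRGcm 2 rose and 0 fell, beside 20.7% of all genes. With E15.5-mSGcm 0 of 8 were called by edgeR, beside 13.9% of all genes, and DESeq2 also called 0, while 5 had an unadjusted p under 0.05. At the adjusted p alone 4, 8 and 4 of the 8 passed in these media, beside 31.3%, 49.5% and 37.8% of all genes. The 3 comparisons share the control libraries. DNAJB1 and BAG3 were the genes that rose, and the other tested members stayed under 1.5-fold in every medium.

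**Figure D2:**
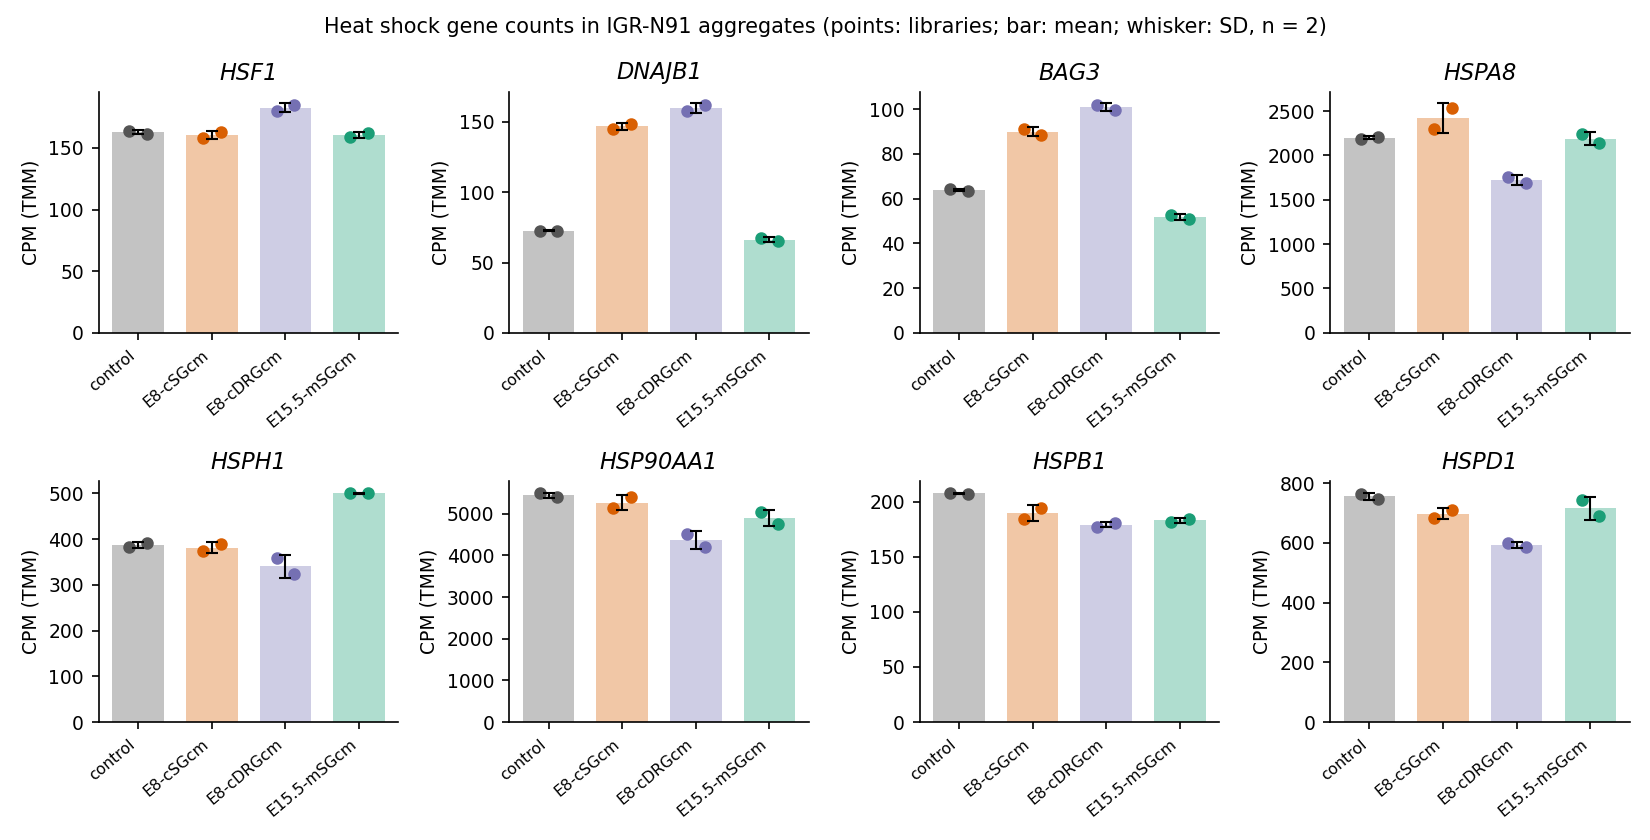
Level of each heat shock gene with counts in the 8 libraries, as TMM-scaled CPM on axes that start at 0. Points are libraries, bars means and whiskers SDs (n = 2); DNAJB1 and BAG3 stand higher in both chick media than in control medium, whereas HSPH1 is highest with E15.5-mSGcm.

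HSF1 RNA was nearly level. It was at 163.9 and 161.6 CPM in control medium, 158.2 and 162.6 with E8-cSGcm, 179.9 and 185.0 with E8-cDRGcm and 158.5 and 162.2 with E15.5-mSGcm. The E8-cDRGcm libraries lay above the other 6, which overlapped. The difference with E8-cDRGcm was a log2 fold change of 0.16 ± 0.051 (SE), or 12.1% (adjusted p = 0.00706 by edgeR), and it stayed under the fold threshold. With E8-cSGcm and with E15.5-mSGcm the log2 fold change was -0.02 in both, with adjusted p of 0.810 and 0.797.

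Among the HSP70 genes, HSPA8 encodes the constitutive cytosolic form. Its level was 2186 and 2211 CPM in control medium, 2300 and 2537 with E8-cSGcm, 1759 and 1685 with E8-cDRGcm and 2244 and 2136 with E15.5-mSGcm. Both E8-cDRGcm libraries were below all others and both E8-cSGcm libraries above all others. Against control the log2 fold change was -0.35 ± 0.050 with E8-cDRGcm (adjusted p = 2.40e-07), 0.14 ± 0.050 with E8-cSGcm (adjusted p = 0.0326) and -0.01 ± 0.050 with E15.5-mSGcm (adjusted p = 0.947), all under 1.5-fold. The widest gap was between the chick media, where E8-cDRGcm was 1.40-fold below E8-cSGcm (adjusted p = 1.03e-09). HSPA8 hosts small nucleolar RNA genes, and 11.4% of its exonic bases overlap an opposite-strand transcript; the strand option of the counting is not given in the sources used here. Its processed pseudogenes held counts equal to 5.21% of its own, and adding them to its row changed no call.

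HSPA1A and HSPA1B encode the strongly inducible HSP70 and are among the most sensitive readouts of HSF1. Both were listed at 0 in all 8 libraries, and so was their neighbour HSPA1L. The zeros were not particular to these genes. All 18 protein-coding genes within 100 kb of HSPA1A were at 0, and so were 169 of the 178 (94.9%) in the interval of the major histocompatibility complex on chromosome 6, compared with 33 of 203 (16.3%) in the rest of the 10 Mb on either side and 4118 of 19837 (20.8%) protein-coding genes in all. The genes at 0 included TUBB, a tubulin, LSM2, a splicing factor, and VARS1, the valine tRNA synthetase, which dividing cells use. No level, fold change or absence of the inducible HSP70 can therefore be read from these counts, and the cause of the zeros was not tested. Outside that interval, the chaperone genes DNAJA3 and HYOU1 and the marker CHGA were also listed at 0 in all 8 libraries, for causes not tested either.

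**Figure D3:**
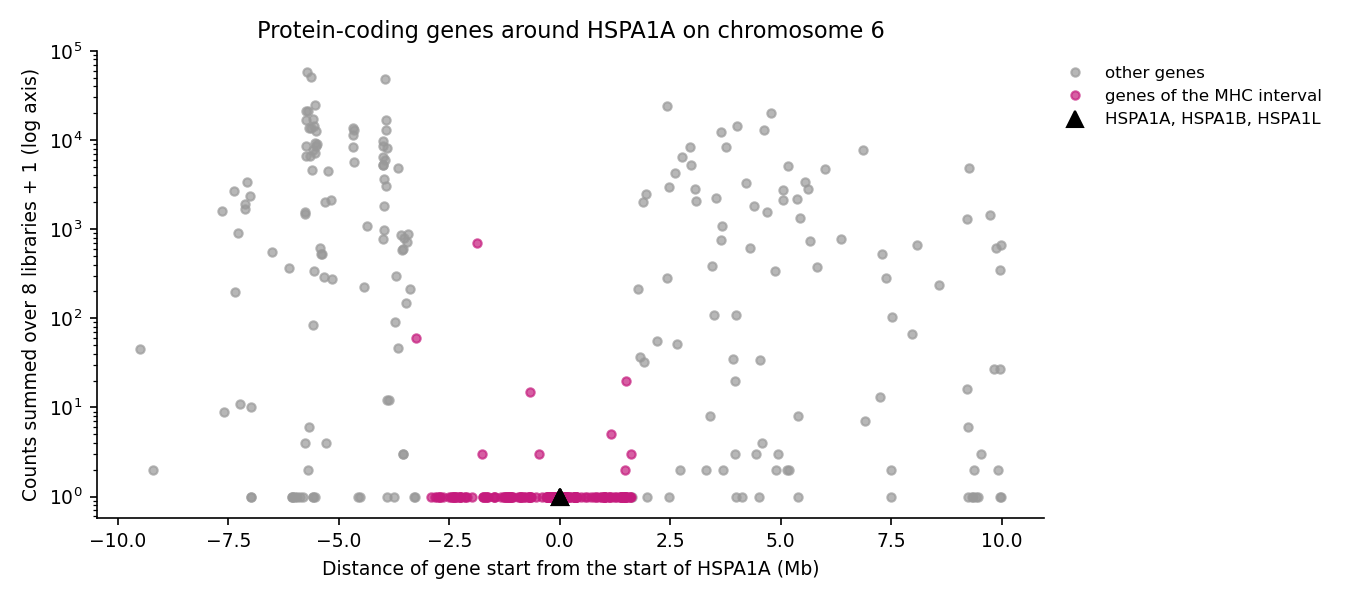
Counts summed over the 8 libraries plus 1, on a log axis, of protein-coding genes by distance in Mb from the start of HSPA1A. Genes of the major histocompatibility interval are magenta and other genes grey; the HSPA1 genes (black triangles) lie in a stretch where 169 of 178 genes have 0 counts.

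DNAJB1, the HSP40 that activates HSP70, showed the largest change of the members in both chick media. Its level was 72.3 and 72.7 CPM in control medium, 145.1 and 148.8 with E8-cSGcm, 157.6 and 162.2 with E8-cDRGcm and 67.4 and 65.0 with E15.5-mSGcm. The 4 chick-medium libraries did not overlap the other 4, and duplicates differed by far less than these groups. DNAJB1 rose 2.03-fold with E8-cSGcm (log2 fold change 1.02 ± 0.056, adjusted p = 6.88e-17) and 2.20-fold with E8-cDRGcm (1.14 ± 0.056, adjusted p = 3.78e-19). With E15.5-mSGcm both libraries lay just below control, at a log2 fold change of -0.13 ± 0.065 that missed the test (adjusted p = 0.105). Of its exonic bases 6.41% overlap TECR on the opposite strand, and TECR had log2 fold changes of 0.07, 0.17 and -0.01 in the same order of media, none of them called. The promoter stretch printed above is of the second of 3 annotated starts, and the counts do not tell which start was used.

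BAG3, a cochaperone that links HSP70 to the autophagy of aggregated proteins, followed DNAJB1 at smaller size. It was at 64.3 and 63.6 CPM in control medium, 91.2 and 88.4 with E8-cSGcm, 102.1 and 99.8 with E8-cDRGcm and 52.7 and 50.7 with E15.5-mSGcm, so that no group overlapped another. It rose 1.58-fold with E8-cDRGcm (log2 fold change 0.66 ± 0.061, adjusted p = 1.48e-11). With E8-cSGcm it was 1.40-fold above control, past the test but under the fold threshold (0.49 ± 0.061, adjusted p = 6.03e-08). With E15.5-mSGcm it was 1.24-fold below control, also under that threshold (-0.31 ± 0.070, adjusted p = 6.02e-04). Across the 8 libraries the log2 level of BAG3 followed that of DNAJB1 with r = 0.97, a description over 4 groups of 2.

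HSPH1, the HSP110 that speeds nucleotide exchange on HSP70, did not follow DNAJB1. Its level was 382.5 and 392.4 CPM in control medium, 373.9 and 389.7 with E8-cSGcm, 357.8 and 323.1 with E8-cDRGcm and 500.1 and 501.4 with E15.5-mSGcm. The E15.5-mSGcm libraries were above all others and nearly equal to each other. Their log2 fold change was 0.37 ± 0.050 (adjusted p = 2.13e-07), or 1.29-fold, while E8-cDRGcm gave -0.19 ± 0.050 (adjusted p = 0.00208) and E8-cSGcm -0.02 ± 0.050 (adjusted p = 0.798). HSPA4, its close relative, had log2 fold changes of 0.36, -0.21 and -0.04 in the same order, also under the fold threshold. The r of HSPH1 with DNAJB1 over the libraries was -0.77, again only a description over the groups of duplicates.

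HSP90AA1, the inducible HSP90, was the most abundant member. It was at 5485 and 5396 CPM in control medium, 5139 and 5393 with E8-cSGcm, 4514 and 4206 with E8-cDRGcm and 5032 and 4758 with E15.5-mSGcm. Every library of the conditioned media was below both control libraries, with the second of E8-cSGcm close to them. The log2 fold change was -0.32 ± 0.050 with E8-cDRGcm (adjusted p = 1.30e-06), -0.15 ± 0.050 with E15.5-mSGcm (adjusted p = 0.0142) and -0.05 ± 0.050 with E8-cSGcm (adjusted p = 0.518), each under 1.5-fold. Pseudogene rows, HSP90AA2P above all, held counts equal to 9.21% of those of HSP90AA1, and reads may be shared between them.

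HSPB1, the small heat shock protein also called HSP27, was at 208.0 and 207.1 CPM in control medium, 184.4 and 194.6 with E8-cSGcm, 177.3 and 180.6 with E8-cDRGcm and 181.7 and 184.4 with E15.5-mSGcm. All 6 libraries of conditioned media lay below control. The log2 fold changes were -0.13, -0.21 and -0.18, with adjusted p of 0.0441, 5.37e-04 and 0.00556, and the media did not differ from each other past the test (adjusted p from 0.228 to 0.631). The widest was 1.16-fold, so none was called.

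HSPD1, the mitochondrial HSP60, was at 764.2 and 747.0 CPM in control medium, 684.6 and 710.4 with E8-cSGcm, 600.5 and 585.3 with E8-cDRGcm and 743.7 and 689.0 with E15.5-mSGcm. The E8-cDRGcm libraries were the lowest, and the other conditioned media lay between them and control. The log2 fold change was -0.35 ± 0.048 with E8-cDRGcm (adjusted p = 1.30e-07), -0.12 ± 0.048 with E8-cSGcm (adjusted p = 0.0646) and -0.08 ± 0.048 with E15.5-mSGcm (adjusted p = 0.219). HSPE1, the HSP10 lid of the same folding chamber, is transcribed away from HSPD1, and their first windows share 204 bases. HSPE1 was at 23.2 and 20.9 CPM in control medium and fell to 14.7 and 13.3 with E8-cDRGcm, a log2 fold change of -0.65 ± 0.11 (adjusted p = 5.86e-06). That call was lost without the first control library or the second E8-cDRGcm library, at -0.58 in both. Of the exonic bases of HSPE1, 10.5% overlap HSPE1-MOB4 on the same strand and 7.41% overlap HSPD1 on the opposite strand. Pseudogenes of HSPE1 were not searched for. HSPD1 pseudogenes held counts equal to 27.5% of its own, the largest share of any member, and adding them changed no call.

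**Figure D4:**
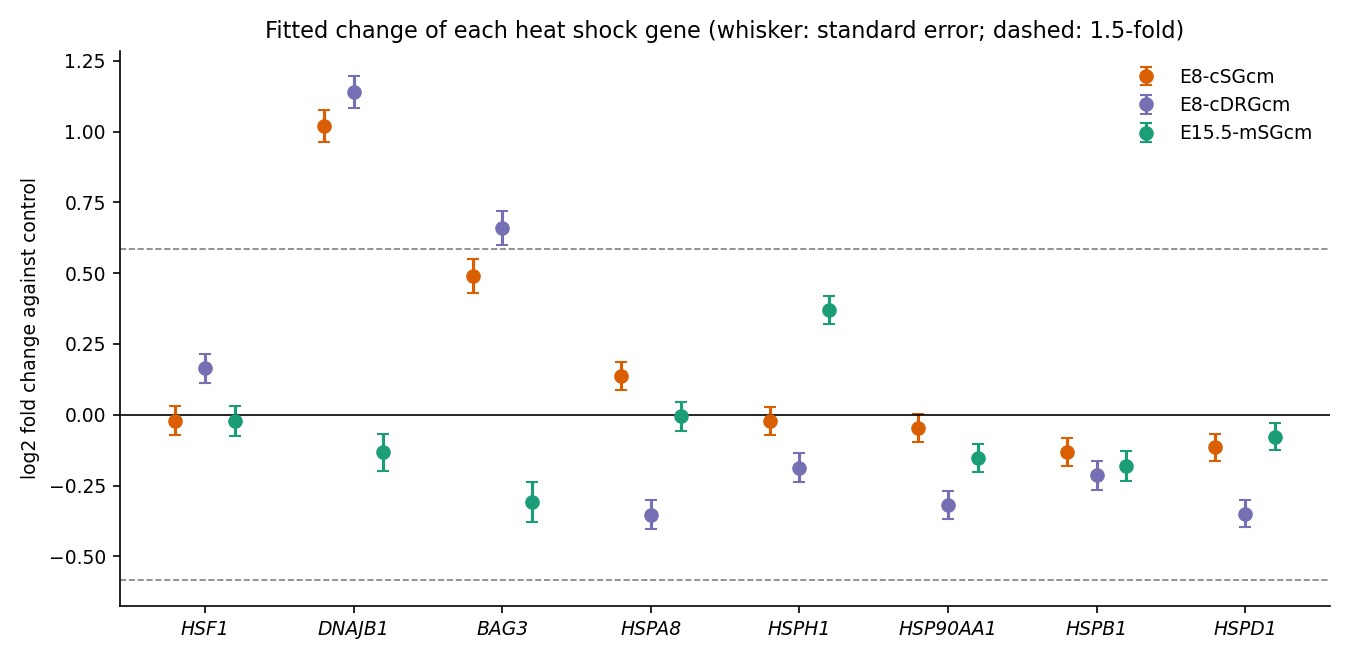
Log2 fold change against control medium of the 8 tested heat shock genes in each conditioned medium (colours), with the standard error of the fit as whiskers and 1.5-fold as dashed lines. DNAJB1 in both chick media and BAG3 with E8-cDRGcm lie above the upper line, and no gene lies below the lower one.

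Per kb of annotated exon, the level in control medium ran from 1067 CPM per kb for HSP90AA1 through HSPA8 at 453, HSPB1 at 128, HSPD1 at 99.0, HSPH1 at 46.2, HSF1 at 30.7 and BAG3 at 23.4 to DNAJB1 at 8.86. Neighbours in this order differed by more than the spread of duplicates. The 2 genes that rose were thus the least abundant of the 8 by this measure, which rests on the union of annotated exons and understates genes with long annotated ends.

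The comparisons between media test the differences directly. The control libraries are not compared in them, but they share in the fit and its estimate of the spread. E8-cDRGcm against E8-cSGcm called 0 of 8 members by edgeR and by DESeq2, beside 7.49% of all genes, with 6 past the adjusted p alone, beside 30.2%, and 7 at an unadjusted p under 0.05. In that comparison DNAJB1 differed by a log2 value of 0.12 ± 0.053 (adjusted p = 0.0804) and BAG3 by 0.17 ± 0.059 (adjusted p = 0.0271). E15.5-mSGcm against E8-cSGcm called 2 members lower and 0 higher, beside 22.3% of all genes, with 4 past the adjusted p alone, beside 49.8%. E15.5-mSGcm against E8-cDRGcm again called 2 lower and 0 higher, beside 26.2%, with 7 past the adjusted p alone, beside 52.6%. The members called were DNAJB1 and BAG3 both times. DNAJB1 was 2.22-fold lower with E15.5-mSGcm than with E8-cSGcm (adjusted p = 4.12e-18) and 2.42-fold lower than with E8-cDRGcm (adjusted p = 9.07e-20). BAG3 was 1.74-fold lower (adjusted p = 2.51e-12) and 1.95-fold lower (adjusted p = 5.77e-15) in the same comparisons. HSPH1 was 1.47-fold higher with E15.5-mSGcm than with E8-cDRGcm (log2 difference 0.56 ± 0.051, adjusted p = 7.46e-12), and it passed the fold threshold when the first E8-cDRGcm library was left out, at 0.64. The ganglia of the third medium differ from the others in species and embryonic day as well as in the shallower libraries, and these cannot be told apart.

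The members belong to a longer list of 84 cytosolic, mitochondrial and cofactor genes of the chaperone system, of which 83 were matched and 74 tested. With E8-cSGcm 7 rose and 2 fell (12.2% called), with E8-cDRGcm 7 rose and 6 fell (17.6%), and with E15.5-mSGcm 1 rose and 4 fell (6.76%), against the shares of all genes given above. The median log2 fold change of the list was 0.02, -0.04 and -0.02, and that of all genes tested 0.01, 0.01 and -0.02. Between media the list had 2 genes higher and 1 lower with E8-cDRGcm than E8-cSGcm (4.05% called), beside 7.49% of all genes. It had 2 higher and 9 lower with E15.5-mSGcm than E8-cSGcm (14.9%), beside 22.3% of all genes. With E15.5-mSGcm against E8-cDRGcm it had 5 higher and 9 lower (18.9%), beside 26.2% of all genes.

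HSPA6 had the largest rise of the list in both chick media. It had 7 and 12 counts in control medium, 24 and 28 with E8-cSGcm, 92 and 113 with E8-cDRGcm and 0 and 2 with E15.5-mSGcm. It rose 2.87-fold with E8-cSGcm (log2 fold change 1.52 ± 0.39, adjusted p = 0.00239) and 11.1-fold with E8-cDRGcm (3.48 ± 0.30, adjusted p = 2.51e-12), and the chick media differed 3.89-fold (adjusted p = 7.88e-08). With E15.5-mSGcm both libraries were below the floor of 3 counts. That fall passed edgeR's test (adjusted p = 0.0247) but not DESeq2 (adjusted p = 0.0987), and it was also lost after thinning every library to the smallest one and without the second control or first E15.5-mSGcm library. The near-identical pseudogene HSPA7 had at most 1 count in a library.

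The other HSP70 genes moved in both directions. HSPA2, best known from the testis, was at 27.6 and 27.2 CPM in control medium and rose to 47.6 and 42.7 with E8-cSGcm (log2 fold change 0.72) and to 47.6 and 50.0 with E8-cDRGcm (0.83), with adjusted p of 1.14e-08 and 8.46e-11, and had a log2 fold change of 0.10 with E15.5-mSGcm. HSPA12A, a distant relative, fell with E8-cDRGcm (-0.83, adjusted p = 1.66e-09) and with E15.5-mSGcm (-0.71, adjusted p = 5.26e-07). The latter call was lost without the first E15.5-mSGcm library, at -0.58. HSPA12B had 12 and 20 counts in control medium and 2 to 6 in each library of the conditioned media, and each of its 3 calls as lower was lost without at least 1 library.

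Of the 13 HSP40 genes, DNAJB1 and DNAJB4 rose in both chick media, and 1 other gene fell with E8-cDRGcm and 1 with E15.5-mSGcm. DNAJB4, a muscle-enriched relative of DNAJB1, was at 11.5 and 12.2 CPM in control medium, 20.0 and 19.7 with E8-cSGcm, 33.5 and 40.8 with E8-cDRGcm and 17.2 and 18.2 with E15.5-mSGcm. All 6 libraries of conditioned media lay above control. The log2 fold changes were 0.75 (adjusted p = 4.41e-06), 1.65 (adjusted p = 1.05e-15) and 0.58 (adjusted p = 5.68e-04), the last of them just under the fold threshold and past it at 0.59 to 0.62 in 5 alternative settings, leaving out the second control or the first E15.5-mSGcm library among them. Unlike DNAJB1, DNAJB4 was 1.87-fold higher with E8-cDRGcm than with E8-cSGcm (adjusted p = 4.24e-09).

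Among small heat shock proteins, HSPB8, the partner of BAG3, was at 2.75 and 2.10 CPM in control medium and rose to 6.41 and 6.40 with E15.5-mSGcm (log2 fold change 1.41, adjusted p = 1.33e-05), the only gene of the 74 that rose there. Its rise with E8-cSGcm (0.76, adjusted p = 0.0146) was lost with DESeq2 (adjusted p = 0.128) and without the first E8-cSGcm or second control library, and with E8-cDRGcm it was at 0.51 (adjusted p = 0.0867). HSPB7 had 12 and 22 counts in control medium, 2 and 4 with E8-cSGcm, 2 and 1 with E8-cDRGcm and 12 and 17 with E15.5-mSGcm. Its fall passed the test in both chick media (adjusted p = 0.00195 and 1.01e-04), and was lost with E8-cSGcm after thinning and without the second control library. So few counts allow no firm fold.

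In mitochondria, LONP1, a protease of misfolded proteins, was at 237.6 and 237.1 CPM in control medium and rose to 411.9 and 420.6 with E8-cSGcm (1.75-fold, adjusted p = 4.50e-16) and to 505.8 and 516.0 with E8-cDRGcm (2.15-fold, adjusted p = 9.36e-21), while E15.5-mSGcm gave 251.1 and 263.0 (adjusted p = 0.0663). HSPA9, the mitochondrial HSP70, had log2 fold changes of 0.19, 0.38 and 0.24, each past the adjusted p but under 1.5-fold. Of 11 mitochondrial genes listed, DNAJA3 was at 0 and not tested. Of the 10 tested, 1 rose and 0 fell with E8-cSGcm. With E8-cDRGcm 1 rose and 2 fell, HSPE1 among them, and 0 were called with E15.5-mSGcm. DEDD2, listed among other HSF1 targets, rose in both chick media with log2 fold changes of 0.70 and 0.87 (adjusted p = 2.39e-06 and 8.54e-09), the first of them at 0.53 and no longer called after thinning.

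The remaining roles of the list held no call against control apart from BAG3. None of the 8 subunits of the cytosolic chaperonin, the 2 HSP90 genes, the 11 HSP90 cochaperones, the 3 HSP110 genes or the 4 regulators was called in any medium by edgeR or DESeq2. At the adjusted p alone 0, 5 and 4 of the chaperonin genes passed, beside 31.3%, 49.5% and 37.8% of all genes. For the HSP90 genes it was 0, 2 and 2, and for the HSP90 cochaperones 6, 8 and 6. For the HSP110 genes it was 1, 3 and 3, and for the regulators 2, 3 and 1. An unadjusted p under 0.05 was found for 2, 5 and 4 of the chaperonin genes. The most counted members of these roles, other than heat shock genes named above, were CCT3, at log2 fold changes of -0.11, -0.20 and -0.12, STIP1, which bridges HSP70 and HSP90, at 0.13, 0.01 and -0.01, and HSBP1, a small binder of HSF1, at 0.14, 0.14 and 0.04. Among the HSP70 cochaperones BAG4 was at 0.02, 0.22 and 0.06.

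**Figure D5:**
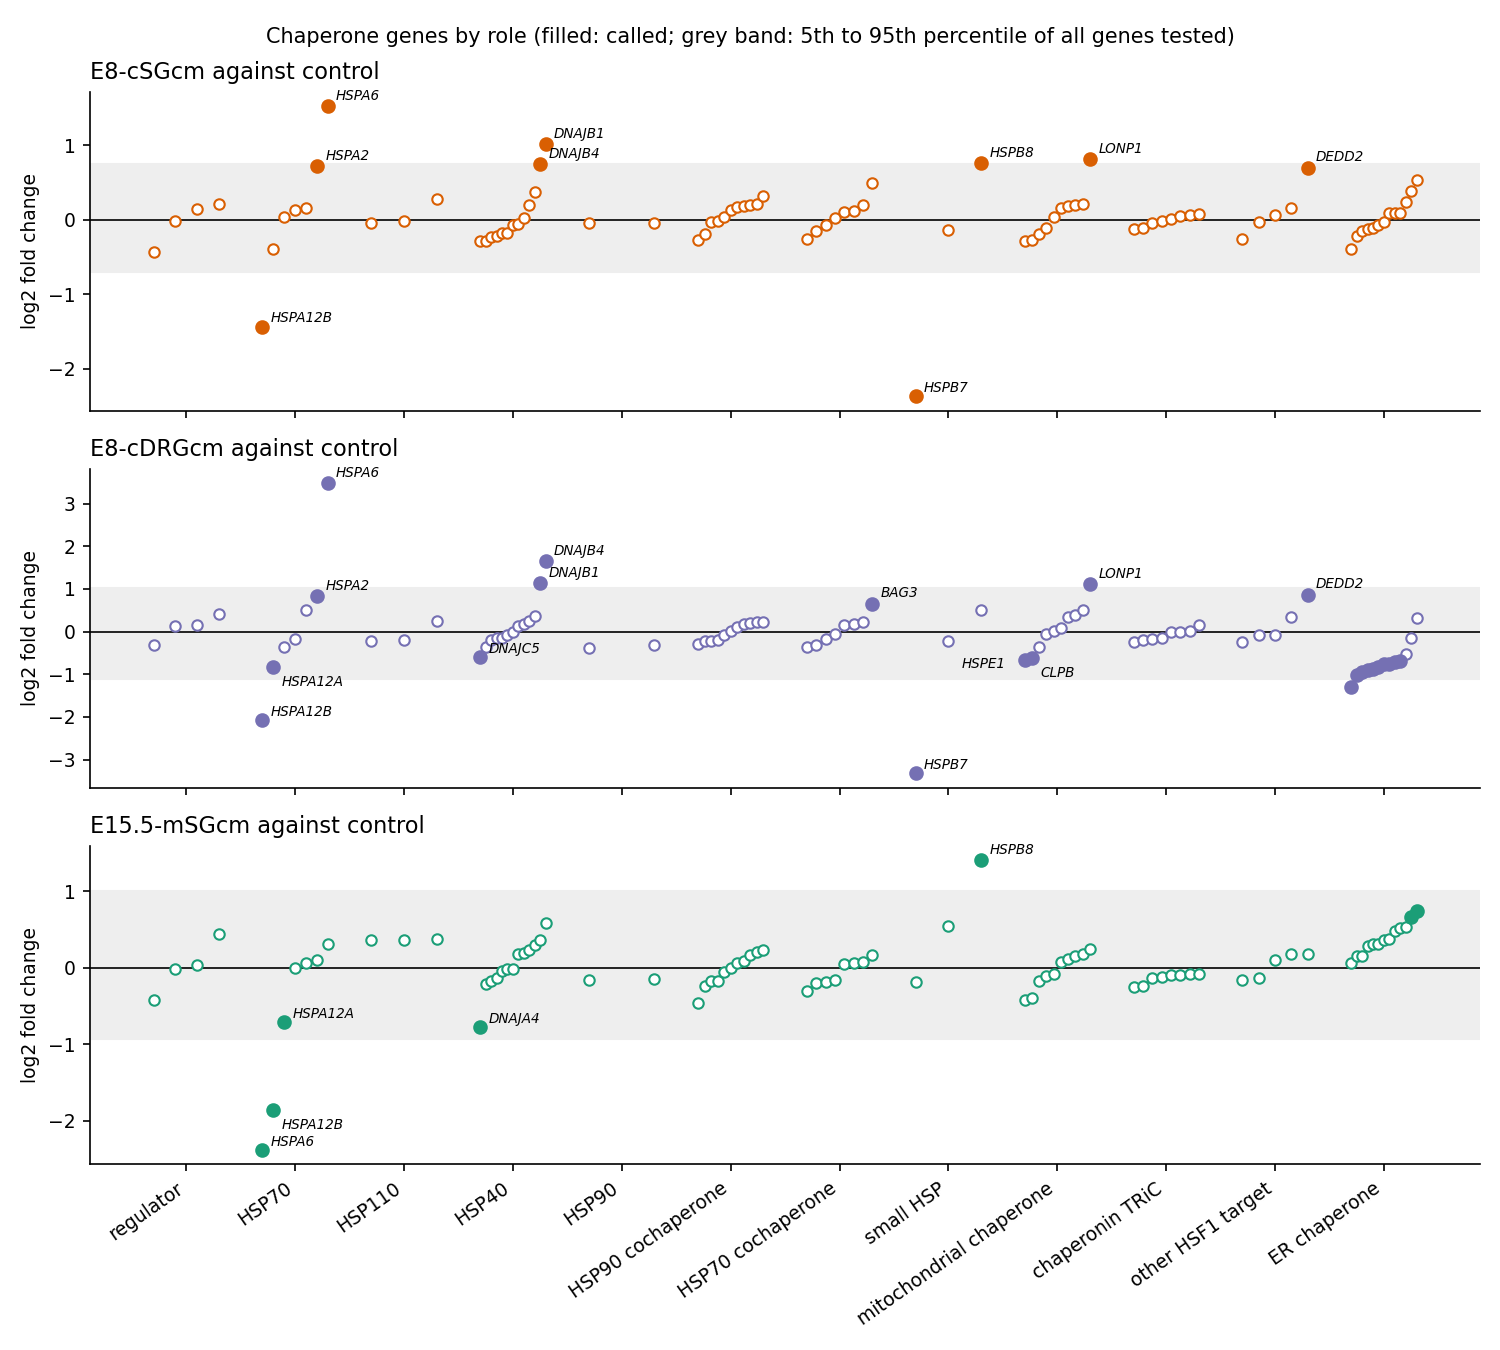
Log2 fold change against control medium of the 74 tested genes of the chaperone list and of 13 endoplasmic reticulum (ER) chaperones, by role, with 1 panel per medium. Filled points are called, and the grey band holds the middle of all genes tested (5th to 95th percentile); HSPA6, DNAJB1 and LONP1 lie above the band in both chick media, and 10 ER chaperones are filled and lower with E8-cDRGcm. The lowest points, HSPA6 with E15.5-mSGcm and HSPB7 in the chick media, rest on at most 4 counts per library.

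Chaperones of the endoplasmic reticulum are driven by a separate response, that to unfolded proteins in the secretory pathway, and were set beside the members. Of 14 listed, HYOU1 was at 0 and not tested. Of the 13 tested, 0 were called with E8-cSGcm by edgeR or DESeq2 (7 had an unadjusted p under 0.05). With E8-cDRGcm 10 fell, and with E15.5-mSGcm 2 rose. The median log2 fold changes were -0.03, -0.77 and 0.36 in the same order of media. HSPA5, the ER form of HSP70, was at 910.5 and 969.4 CPM in control medium, 1425 and 1301 with E8-cSGcm, 564.0 and 500.2 with E8-cDRGcm and 1296 and 1412 with E15.5-mSGcm. It fell 1.77-fold with E8-cDRGcm (adjusted p = 9.12e-13), and was 1.45-fold and 1.44-fold above control in the others, under the threshold (adjusted p = 1.72e-08 and 1.56e-08). Without the second E8-cSGcm library the first of these passed it, at a log2 fold change of 0.60. HSP90B1, the ER form of HSP90, fell 1.87-fold with E8-cDRGcm (adjusted p = 5.07e-12). With E8-cDRGcm, DNAJB1 and BAG3 therefore rose in the same libraries in which HSPA5 and HSP90B1 fell.

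The 5 genes outside the lists whose log2 level was most like that of DNAJB1 over the 8 libraries, among 9835 with a mean of at least 10 CPM, were NID1 (r = 0.996), DYNLT1 (0.995), NDUFA10 (0.995), GYPC (0.993) and IL13RA2 (0.993). They encode a basement membrane protein, a dynein light chain, a subunit of respiratory complex I, a red cell membrane glycoprotein and a receptor for interleukin 13. The points are 4 groups of 2 libraries, so that any gene high in both chick media scores well. HSPA1A and HSPA1B gave no such pattern, being listed at 0.

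Genes with an element of 3 units in a promoter window were called in both directions. Of 57 tested genes with such a window, HSPA8, HSP90AA1, HSPD1 and HSPA6 among them, 5 rose and 3 fell with E8-cSGcm, 5 rose and 6 fell with E8-cDRGcm and 6 rose and 5 fell with E15.5-mSGcm. Among the 10755 tested genes with windows but without it, 558, 1114 and 658 rose and 398, 1161 and 795 fell. As shares, 8.77%, 8.77% and 10.5% of the genes with it rose, beside 5.19%, 10.4% and 6.12% of those without it. The shares that fell were 5.26%, 10.5% and 8.77% with it and 3.70%, 10.8% and 7.39% without it. The difference between these shares was not tested. HSPA8, HSP90AA1 and HSPD1, which carry it, were each under control with E8-cDRGcm and uncalled, while HSPA6, which also carries it, rose there. DNAJB1 and BAG3, which do not carry it, rose there, while HSPH1 and HSPB1, also without it, were under control and uncalled.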

How the data were processed

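RNA from IGR-N91 aggregates was measured in 8 libraries, 2 per group, grouped by the titles of the libraries. The authors sequenced stranded total RNA libraries on a NextSeq500 and deposited raw counts per Ensembl gene, without normalization. The submitters' processing notes name bcl2fastq 2.17.1.14, cutadapt 1.9.1, TopHat 2.1.0 and HTSeq 0.11.3. The study's methods give hg19 as the genome and the notes give hg38, so no gene positions are taken from the counts. The strand option and the annotation release are not given in the sources used here. Without strand, reads of overlapping genes on opposite strands cannot be told apart, and reads shared with pseudogenes may be lost or split.

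Symbols, exon lengths and distances came from GENCODE release 44 mapped to GRCh37 (58611 of 60676 identifiers had a symbol, 32570 a count). Counts were tested with edgeR 4.0.16 in R 4.3.3 (TMM, filterByExpr by group, robust quasi-likelihood fit without a block), with 16680 genes kept. Calls needed a Benjamini-Hochberg adjusted p below 0.05 and a change of 1.5-fold or more. Standard errors are the log2 fold change divided by the square root of F, and are approximate. Correlations used log2 CPM with a prior count of 2. The chi-square per gene between duplicates was 1.78 to 3.64, where counting error gives about 1, and the common biological coefficient of variation was 0.0400. On simulated counts of E8-cSGcm against control, 180 of 200 changed genes among 16216 were recovered, with 7 false calls.

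The members and lists were chosen with earlier results of these data known. Named beside the members are genes of a role called in at least 2 media, or else the most counted of the role, and HSPE1, HSPA6, HSPA5, HSP90B1 and HSPA9. In addition, TECR, HSPA7 and neighbours of HSPA1A were named after their values were seen. Alternatives were DESeq2 1.42.0, RLE scaling, a filter at 1 count in total or at 10 in every library, thinning to 7930765 counts, only the libraries compared, the adjusted p alone, a replicate block, each library left out, and, added after seeing the data, counts of pseudogenes added to the members. Figures were drawn with matplotlib 3.10.9. The deposited table held these 8 libraries only. One cell type marker is not reported here.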

Additional observations from a re-analysis of the deposited data

Results flagged for a closer look

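The response of DNAJB1 and of BAG3 differed between media by edgeR's test of the difference itself. The control libraries are not compared in that test, but they share in the fit. DNAJB1 differed by -1.15 on the log2 scale between E15.5-mSGcm and E8-cSGcm (2 of 2 libraries lower than both of the others, adjusted p = 4.12e-18) and by -1.27 between E15.5-mSGcm and E8-cDRGcm (adjusted p = 9.07e-20). BAG3 differed by -0.80 (adjusted p = 2.51e-12) and by -0.97 (adjusted p = 5.77e-15) in the same comparisons, again with 2 of 2 libraries lower. Groups of 2 libraries were too small to look for single libraries that stand apart.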

How the results depend on the processing

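The counts of heat shock genes called against control or between media were the same in every alternative except the adjusted p alone, which gave 4, 8 and 4 against control and 6, 4 and 7 between media, and the comparison of E15.5-mSGcm with E8-cDRGcm, which gave 2 to 3 with 1 library left out. For the chaperone list the adjusted p alone gave 41, 52 and 38 against control and 37, 49 and 49 between media. Against control the list with E15.5-mSGcm gave 3 calls in place of 5 by DESeq2 and after thinning. DESeq2 also called 6 in place of 9 with E8-cSGcm and 12 in place of 13 with E8-cDRGcm. Between media it called 9 in place of 11 for E15.5-mSGcm against E8-cSGcm, and the same counts in the other comparisons. The counts of the list also moved with 1 library left out, except between the chick media. Over all genes DESeq2 called 851 in place of 1433 with E8-cSGcm, 697 in place of 1249 between the chick media, and less than 1.5 times fewer in the other comparisons. The cause was not tested.

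Same-numbered libraries did not deviate together (correlations of -0.0575 to 0.0349 over 6 pairs of groups). These values gave no sign of pairing, but they cannot show whether same-numbered libraries were prepared together. With the replicate block the counts of members called were 1, 2 and 0 against control, and 1414 in place of 1433 genes were called with E8-cSGcm. The sum of HSPA1A and HSPA1B was not run, both being at 0.

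Signs turned for values near 0 that were called in no setting. Against control, HSPA8 with E15.5-mSGcm turned to 0.00567 (RLE), 0.00301 (filter at 10), 0.00918 (only the libraries compared) and STIP1 to 0.00583, 0.00328, 0.00945 and, after thinning, 0.00895. HSBP1 turned to -0.021 (filter at 1), and HSPA12A and BAG4 with E8-cSGcm to -0.071 and -0.031 (thinned). Between E15.5-mSGcm and E8-cSGcm, HSF1 turned to 0.00477 (DESeq2), 0.019 (RLE), 0.00798 (filter at 10), 0.00374 (thinned) and 0.011 (only the libraries compared), and HSPD1 to -0.027 (filter at 1). HSPB1 turned to -0.026 between E15.5-mSGcm and E8-cDRGcm (filter at 1). With 1 library left out, ranges crossing 0 were -0.040 to 0.0021 (HSF1) and -0.051 to 0.011 (HSPH1) with E8-cSGcm, -0.048 to 0.022 (HSPA8) with E15.5-mSGcm, and -0.033 to 0.011 (HSF1) and -0.025 to 0.084 (HSPD1) between E15.5-mSGcm and E8-cSGcm. For genes outside the members they were -0.027 to 0.070 (BAG4) with E8-cSGcm, -0.070 to 0.085 (STIP1) with E8-cDRGcm, and -0.027 to 0.081 (HSBP1), -0.054 to 0.026 (STIP1), -0.066 to 0.19 (HSPE1) and -0.036 to 0.34 (DEDD2) with E15.5-mSGcm.

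The spread rests on duplicates, and the E15.5-mSGcm libraries were the shallowest, so that HSPA6, HSPA12B and HSPB7, at or near 3 counts per library in some groups, give no firm fold.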
